A study of Homo sapiens with 136 samples.

Results

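Cathepsins are the proteases of the lysosome, and 8 of the 25435 genes in the count table were followed here through a drug screen in human pancreatic cancer cells. The members are CTSA, CTSB, CTSC, CTSD, CTSH, CTSL, CTSS and CTSZ, chosen by their symbols in the deposited table. The choice was made knowing that CTSD and CTSL went opposite ways under MEK inhibitors in AsPC-1 cells, so that contrast is described for these genes without a test. All 8 members passed the filter on low counts in both cell lines, though CTSS in PANC-1 was near the limit of detection.

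Cathepsins are made as inactive precursors, are carried to the lysosome mostly by mannose 6-phosphate receptors and are activated there by cleavage at low pH. Inside the lysosome they break down the proteins that endocytosis and autophagy deliver, and autophagy is a nutrient source for pancreatic cancer cells. Transcription factors of the MiT/TFE family (TFEB, TFE3, MITF) bind E-box motifs near many lysosomal genes, and these factors are held in the cytoplasm when phosphorylated by growth signalling kinases. CTSD is an aspartic endopeptidase. CTSB, CTSL and CTSS are cysteine endopeptidases, CTSC and CTSH are cysteine exopeptidases that act from the amino end of a chain, CTSZ acts from the carboxy end, and CTSA is a serine carboxypeptidase that also protects beta-galactosidase and neuraminidase from breakdown.

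RNA was measured by PLATE-Seq, a pooled RNA sequencing method for lysates of multi-well plates, in AsPC-1 and PANC-1, which are established lines from human pancreatic ductal adenocarcinoma. In each line, 14 kinase inhibitors were each combined with the Vps34 inhibitor Compound 19, which acts on the kinase that makes the lipid on which autophagosomes form, or with hydroxychloroquine, a weak base that raises the pH of lysosomes, with 2 libraries per combination, and each autophagy inhibitor was also given alone, with 6 libraries each. Of these, 5 target MEK (binimetinib, cobimetinib, refametinib, selumetinib, trametinib), 4 target ERK (AZD0364, ravoxertinib, SCH772984, ulixertinib) and 5 target RAF (dabrafenib, GDC-0879, PLX8394, RAF709, sorafenib). Treatment lasted 24 h, in DMEM with serum, at a dose of each drug that on its own left 80% of cells viable after 48 h; the doses themselves were not given. Every library therefore contains an autophagy inhibitor, there are no untreated cells, and "alone" below means an autophagy inhibitor without a kinase inhibitor. That leaves 68 libraries per line, with plates A and B of that line read from the codes PSA and PSB in the library titles. Nothing in the labels says that the libraries of a group came from separate cultures beyond the plate, so p-values measure the spread between these libraries.

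Libraries held 1419228 to 5871860 counts. Levels below are CPM (counts per library total, without TMM factors), which do not correct for gene length, and changes are log2 fold changes ± SE from 1 edgeR quasi-likelihood fit per line with TMM scaling, with p-values adjusted over all genes tested (12761 for AsPC-1, 12627 for PANC-1) and a call at an adjusted p under 0.05. All 5 epithelial markers were detected in both lines, and their summed level was 4347 to 7715 CPM under MEK inhibitors in AsPC-1, against 2925 to 4025 CPM alone. The 8 macrophage markers summed to at most 6.81 CPM in any AsPC-1 library and 2.55 CPM in any PANC-1 library, and TYROBP was at 0 in all 68 AsPC-1 libraries. The 5 fibroblast markers summed to 73.7 to 246 CPM under MEK inhibitors in AsPC-1, against 43.3 to 85.3 CPM alone, and the 4 endothelial markers to at most 2.97 CPM in any library. The 13 protein-coding genes of mitochondrial DNA took 29.2% ± 3.3 (SD, n = 20) of counts under MEK inhibitors in AsPC-1 and 27.0% ± 2.1 (SD, n = 12) alone. The part of these shifts in the results below was not tested.

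In GENCODE on GRCh38, CTSD spans chr11:1752752-1764573 on the minus strand, CTSL chr9:87725519-87731393 on the plus strand, CTSC chr11:88293592-88337787 on the minus strand, CTSH chr15:78921058-78949574 on the minus strand and CTSS chr1:150730196-150765957 on the minus strand. CTSA spans chr20:45890144-45898820 on the plus strand and CTSZ chr20:58995185-59007247 on the minus strand. The counts are per gene and do not resolve exons or transcripts. How reads shared by CTSL and its close relative CTSV were divided is not given in the sources used here.

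RefSeq promoter sequence (GRCh38) was available for 6 of the 8 members. The 250 bases before the start were searched on both strands for 5 motifs, in these members and in all promoters. The E-box CACGTG occurred in 6.34% of 35116 promoters and, among the 6 members, in CTSA at −42 and −25 and in CTSD at −47. The longer CLEAR core TCACGTGA, which contains the E-box, occurred in 0.854% of promoters and among the members in CTSA at −26. Neither AP-1 (TGANTCA, 6.57% of promoters) nor the ETS core (CCGGAAG, 8.52%) was found in the 6 windows, and the GC box GGGCGG (42.6%) was found in all 6. Stretches of 30 bases around these positions are shown, 5′ to 3′ on the strand of the gene with the E-box in capitals. The CTSL stretch, which holds none of these E-boxes, is taken at the same distance from the start as that of CTSD.
CTSA, chr20:45891291-45891320, plus strand: gtCACGTGgcgccggagttCACGTGactcg
CTSD, chr11:1763957-1763986, minus strand: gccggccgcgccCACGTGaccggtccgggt
CTSL, chr9:87726060-87726089, plus strand: gcggtgccggccgaacccagacccgaggtt
A match to a motif is a description of these letters and not evidence that a factor binds there. The part of these motifs in the changes below was not tested.

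CTSD and CTSL moved in opposite directions in AsPC-1. Under MEK inhibitors CTSD had 18.8, 35.04 and 52.5 CPM (lowest, median and highest of 20 libraries), against 7.07, 15.8 and 23.7 CPM alone (12 libraries). Under MEK inhibitors CTSL had 15.2, 31.2 and 42.9 CPM, against 57.4, 72.5 and 99.1 CPM alone. CTSD was above every alone library in 18 of 20 MEK inhibitor libraries, and CTSL was below every alone library in all 20. The log2 fold change was 1.21 ± 0.12 for CTSD and −1.22 ± 0.09 for CTSL and carries no test here, since this contrast was known when the genes were picked. In such bulk libraries, fewer cells of a type and less RNA per cell cannot be told apart.

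**Figure D1:**
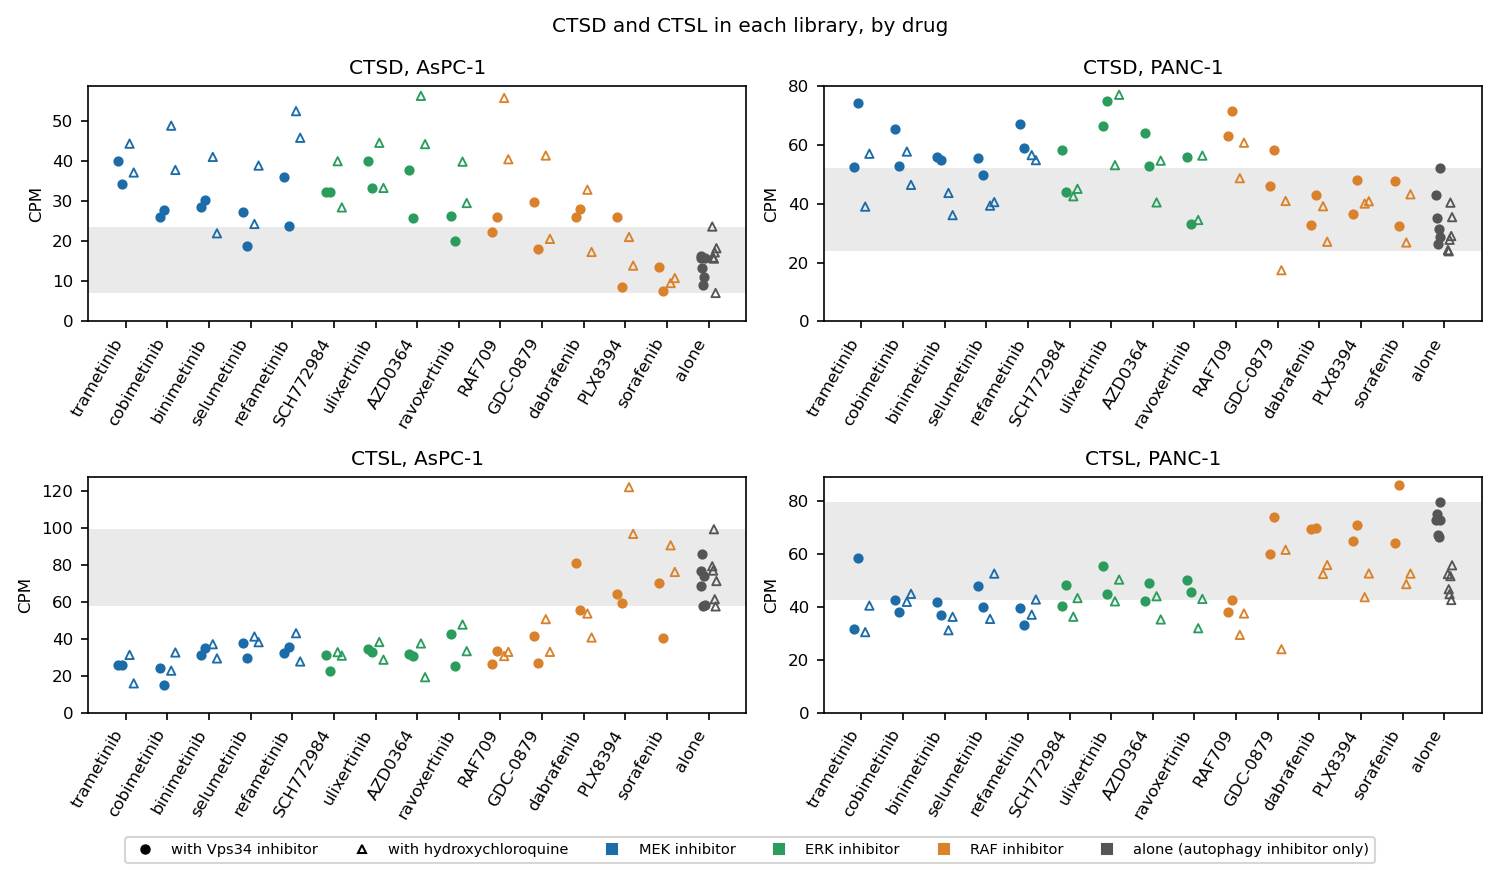
CTSD and CTSL in every library, in CPM, by kinase inhibitor (horizontal axis) and line. Filled circles are libraries with the Vps34 inhibitor, open triangles libraries with hydroxychloroquine, and the grey band is the range of the 12 alone libraries, which stand at the far right. In AsPC-1, CTSL lies below the band in all 20 MEK and all 16 ERK inhibitor libraries and CTSD above it in 18 and 15, while among RAF inhibitors CTSL lies below the band in all 4 libraries of RAF709 and of GDC-0879, in 3 of 4 of dabrafenib, in 1 of 4 of sorafenib and in 0 of 4 of PLX8394.

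ERK inhibitors, which act on the next kinase in the cascade, gave the same directions. Their contrast shares the alone libraries and the fit with that of MEK inhibitors. The p-values of CTSD and CTSL in AsPC-1 are thus not independent of the choice of these genes. CTSD had 20.1, 33.3 and 56.3 CPM (lowest, median and highest of 16 libraries), against 7.07 to 23.7 CPM alone, and was above every alone library in 15 of 16. It was higher by 1.25 ± 0.13 (edgeR, adjusted p = 7.8e-12). CTSL had 19.1, 32.2 and 47.6 CPM, all 16 below the lowest alone library, and was lower, with a log2 fold change of −1.12 ± 0.10 (edgeR, adjusted p = 9.1e-15). MEK and ERK inhibitors were also set against each other directly. None of the 6 members other than CTSD and CTSL passed, with 1 at an unadjusted p under 0.05 (CTSA, log2 difference −0.22 ± 0.09), where 0.744% of all genes passed. CTSD and CTSL are left out because their MEK inhibitor values entered the choice of genes.

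The exopeptidases CTSC and CTSH, and CTSS, an endopeptidase that stays active near neutral pH and trims the invariant chain in antigen-presenting cells, were also called under both classes in AsPC-1. CTSC, which activates serine proteases of immune granules, had 54.3, 65.9 and 88.1 CPM under MEK inhibitors and 44.2, 70.2 and 83.7 CPM under ERK inhibitors, against 78.6, 103 and 120 CPM alone. It was below every alone library in 16 of 20 and 12 of 16 libraries, and fell, with log2 fold changes of −0.57 ± 0.07 under MEK inhibitors (edgeR, adjusted p = 6.1e-10) and −0.55 ± 0.07 under ERK inhibitors (adjusted p = 6.5e-09). CTSH, an aminopeptidase, had 74.2, 100 and 123 CPM under MEK inhibitors and 49.98, 95.2 and 124 CPM under ERK inhibitors, against 44.8, 66.2 and 82.4 CPM alone. It was above every alone library in 16 of 20 and 11 of 16 libraries and rose by 0.66 ± 0.08 (edgeR, adjusted p = 6.9e-09) and 0.55 ± 0.09 (adjusted p = 1.1e-06).

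CTSS had the largest log2 rise of the called members under MEK and ERK inhibitors in AsPC-1. It had 8.81, 18.1 and 29.4 CPM under MEK inhibitors and 10.2, 16.5 and 22.9 CPM under ERK inhibitors, against 3.05, 5.39 and 11.1 CPM alone, and was above every alone library in 17 of 20 and 14 of 16. The log2 fold change was 1.59 ± 0.19 under MEK inhibitors (edgeR, adjusted p = 1.1e-09) and 1.52 ± 0.20 under ERK inhibitors (adjusted p = 9.3e-09). Macrophages also express CTSS. The 8 macrophage markers summed to 0 to 5.22 CPM under MEK inhibitors and 0 to 6.54 CPM under ERK inhibitors, against 0.373 to 3.35 CPM alone. CD163 and TYROBP were at 0 in every library of these 3 sets, AIF1 in every MEK inhibitor library and PTPRC in every alone library, and the part of these markers in the CTSS values was not tested.

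**Figure D2:**
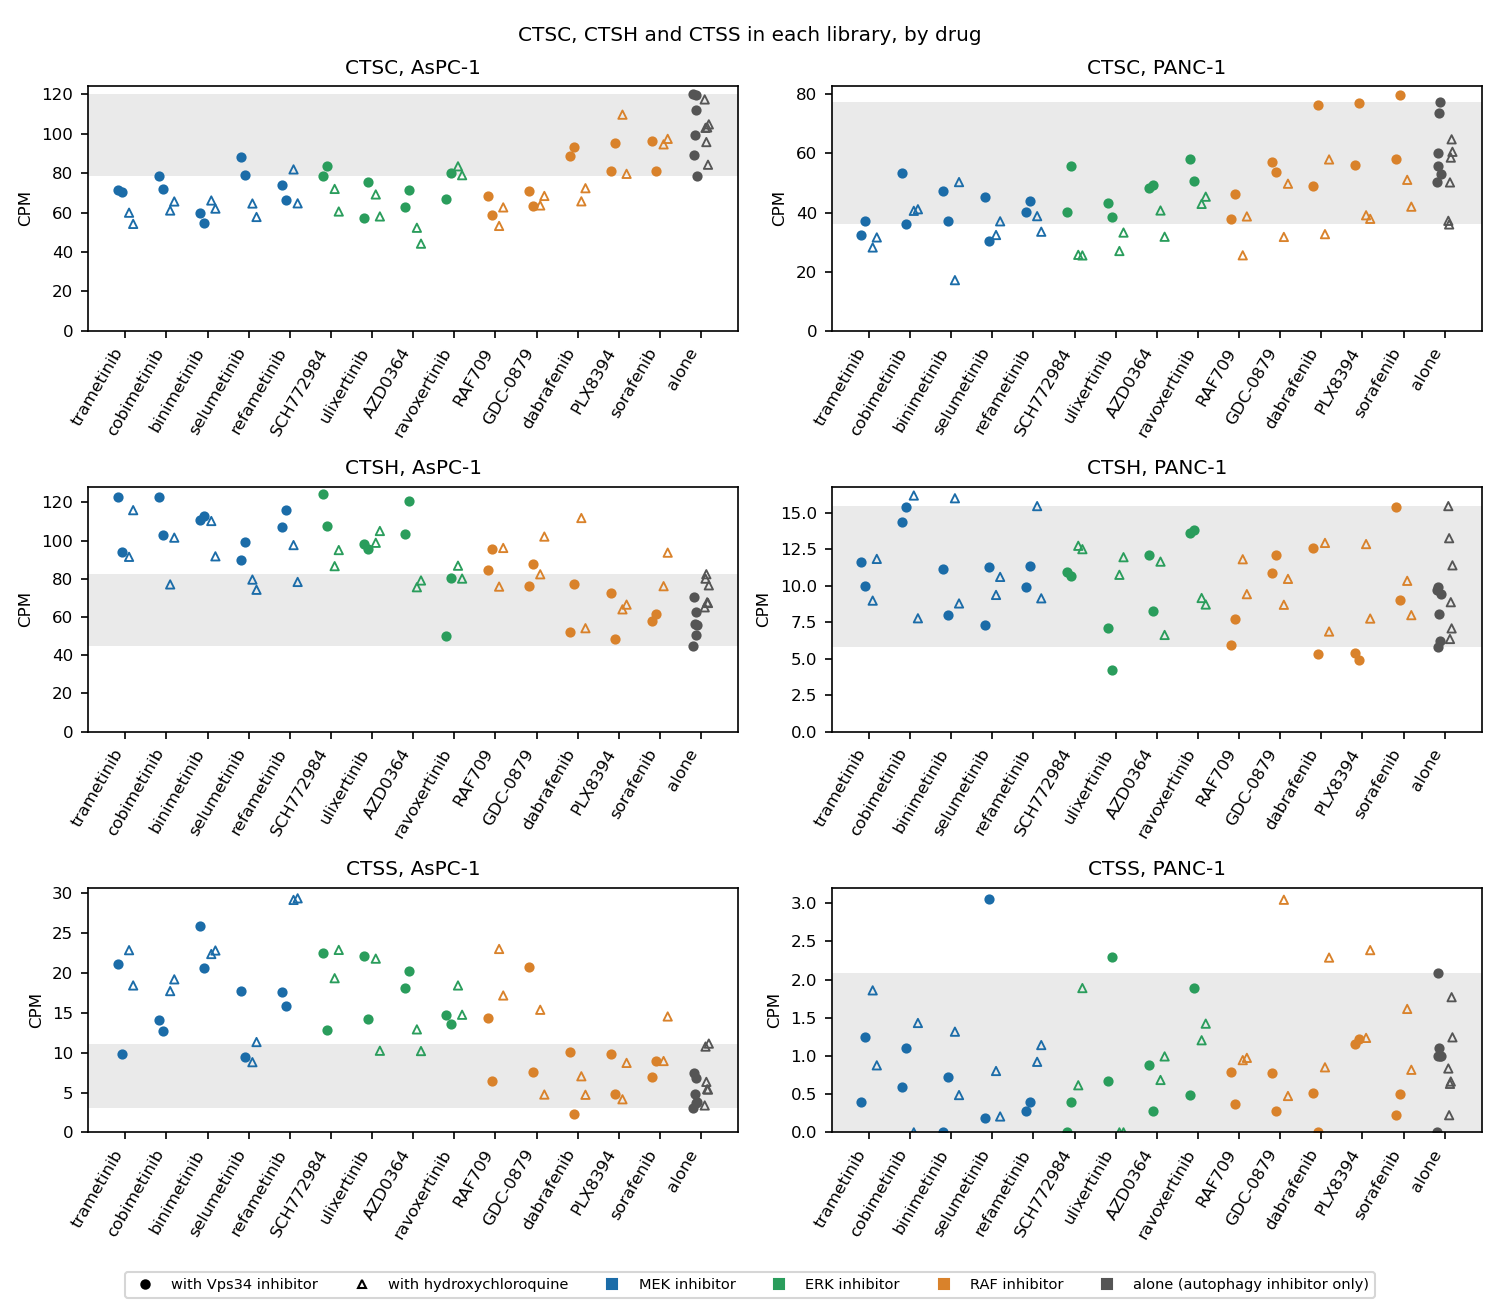
CTSC, CTSH and CTSS in every library, in CPM, by kinase inhibitor and line, drawn as in the plot of CTSD and CTSL (filled circles Vps34 inhibitor, open triangles hydroxychloroquine, grey band the range of the alone libraries at the far right). In AsPC-1, CTSC lies below the band in 16 of 20 MEK inhibitor libraries, CTSH above it in 16 and CTSS above it in 17, and CTSS in PANC-1 stays at 0 to 3.05 CPM.

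CTSA, CTSB and CTSZ gave 1 call between them under MEK and ERK inhibitors in AsPC-1. CTSA had 42.4, 56.0 and 74.4 CPM under ERK inhibitors, against 31.2, 43.1 and 55.5 CPM alone, with overlapping groups, and rose by 0.38 ± 0.10 (edgeR, adjusted p = 0.0016); on plate B alone the value was 0.35 (adjusted p = 0.24, the highest over its alternatives, the lowest being 0.00034). Under MEK inhibitors CTSA did not pass (0.16 ± 0.09, adjusted p = 0.2). CTSB had medians of 239 CPM under MEK and 238 CPM under ERK inhibitors, against 236 CPM alone, with log2 fold changes of 0.05 ± 0.06 and 0.07 ± 0.06. CTSZ was near the floor in AsPC-1, with 0 to 4.89 CPM under MEK inhibitors, and its log2 fold change of −0.61 ± 0.53 did not pass.

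Of the 6 members other than CTSD and CTSL, 2 were called higher and 1 lower under MEK inhibitors in AsPC-1, where 12.9% of all genes tested were called higher and 16.1% lower. Under ERK inhibitors 4 of the 8 were called higher and 2 lower, where the shares over all genes were 13.7% and 17.4%. CTSD is among those higher and CTSL among those lower, and their calls are not independent of the choice of genes. The median log2 fold change over all 8 members was 0.11 under MEK inhibitors against −0.05 over all genes, and 0.22 under ERK inhibitors against −0.06. Both medians include CTSD and CTSL, whose MEK inhibitor values entered the choice of genes. These comparisons share the 12 alone libraries.

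In PANC-1 the members called under MEK inhibitors were CTSC, CTSD and CTSL. Under MEK inhibitors CTSD had 36.1, 54.8 and 74.2 CPM, against 23.8, 30.3 and 52.0 CPM alone, and rose by 0.65 ± 0.11 (edgeR, adjusted p = 1.5e-05). CTSL had 30.4, 39.5 and 58.3 CPM, against 42.5, 60.8 and 79.4 CPM alone, and its log2 fold change was −0.59 ± 0.08 (edgeR, adjusted p = 1.5e-07). CTSC had 17.1, 37.2 and 53.3 CPM, against 36.0, 57.2 and 77.5 CPM alone, and its log2 fold change was −0.60 ± 0.11 (edgeR, adjusted p = 2.2e-05). The groups overlapped for all 3, with 14 of 20 libraries below every alone library for CTSL. With single plates and each drug counted as a replicate, CTSC did not pass on plate A (−0.39, adjusted p = 0.17) and CTSD did not pass on plate B (0.51, adjusted p = 0.068).

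Under ERK inhibitors in PANC-1 the same 3 genes passed. The log2 fold changes by edgeR were 0.65 ± 0.11 for CTSD (adjusted p = 4.3e-05), −0.47 ± 0.09 for CTSL (adjusted p = 4.6e-05) and −0.51 ± 0.11 for CTSC (adjusted p = 0.00061). So 1 member was called higher and 2 lower in each class, where 7.9% of genes were called higher and 10.6% lower under MEK inhibitors and 5.45% and 8.68% under ERK inhibitors. The median over the members was 0.01 under MEK and 0.00 under ERK inhibitors, against −0.02 over all genes in both. None of the 8 differed between MEK and ERK inhibitors in PANC-1, with 0 at an unadjusted p under 0.05, where 2.26% of genes passed. On plate A alone, fitted in the same way, 1 member passed under ERK inhibitors in place of 3, CTSC (adjusted p = 0.42) and CTSL (adjusted p = 0.053) being lost, and CTSD was lost on plate B (adjusted p = 0.073). CTSD was also lost without replicate 1 of every combination (adjusted p = 0.057), and CTSC without replicate 2 (−0.30, adjusted p = 0.17).

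The other members did not pass under these classes in PANC-1. CTSH had 7.34, 10.9 and 16.2 CPM under MEK inhibitors, against 5.83, 9.16 and 15.5 CPM alone (0.26 ± 0.13, edgeR adjusted p = 0.19). CTSS was near the limit of detection, with 0 to 3.05 CPM under MEK inhibitors and 0 to 2.08 CPM alone. CTSB had medians of 117 CPM under MEK inhibitors and 108 CPM alone, and CTSA 31.7 and 28.7 CPM.

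The size of the response was then compared between the lines in a fit of both. AsPC-1 minus PANC-1, the ERK inhibitor effect differed by 0.60 ± 0.18 for CTSD (edgeR, adjusted p = 0.0118), −0.64 ± 0.13 for CTSL (adjusted p = 0.000147), 0.46 ± 0.16 for CTSH (adjusted p = 0.0426) and 2.22 ± 0.49 for CTSS (adjusted p = 0.000506). For CTSD and CTSL the AsPC-1 side uses the alone libraries that also entered the choice of members. Their p-values here are not independent of that choice. The MEK inhibitor effect differed by 1.82 ± 0.44 for CTSS (edgeR, adjusted p = 0.00206), and by 0.55 ± 0.17 for CTSD and −0.63 ± 0.13 for CTSL, given without a test because the AsPC-1 side entered the choice of members. The CTSS values rest on a PANC-1 level of about 1 CPM with libraries at 0. Mean CTSS there was 0.858 CPM under ERK inhibitors and 0.963 CPM alone. An ERK inhibitor group of PANC-1 held no CTSS counts, so the 2.22 and its SE, derived from the F statistic, are not a reliable size. CTSC, by contrast, differed between the lines by 0.03 ± 0.12 under MEK and −0.04 ± 0.13 under ERK inhibitors and did not pass. Over all 13960 genes in this fit, the line difference passed for 11.4% under MEK and 13.9% under ERK inhibitors; within plate A or plate B taken alone none of these member differences passed, and the CTSH difference had an adjusted p of 0.084 without plate in the model (between 0.020 and 0.54 over its alternatives). The CTSD difference under ERK inhibitors had an adjusted p of 0.062 with drugs of a class as replicates, 0.079 without replicate 1 of every combination and 0.32 without replicate 2 (between 0.0036 and 0.40 over its alternatives). Without replicate 1 those of CTSS had an adjusted p of 0.063 under both classes.

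**Figure D3:**
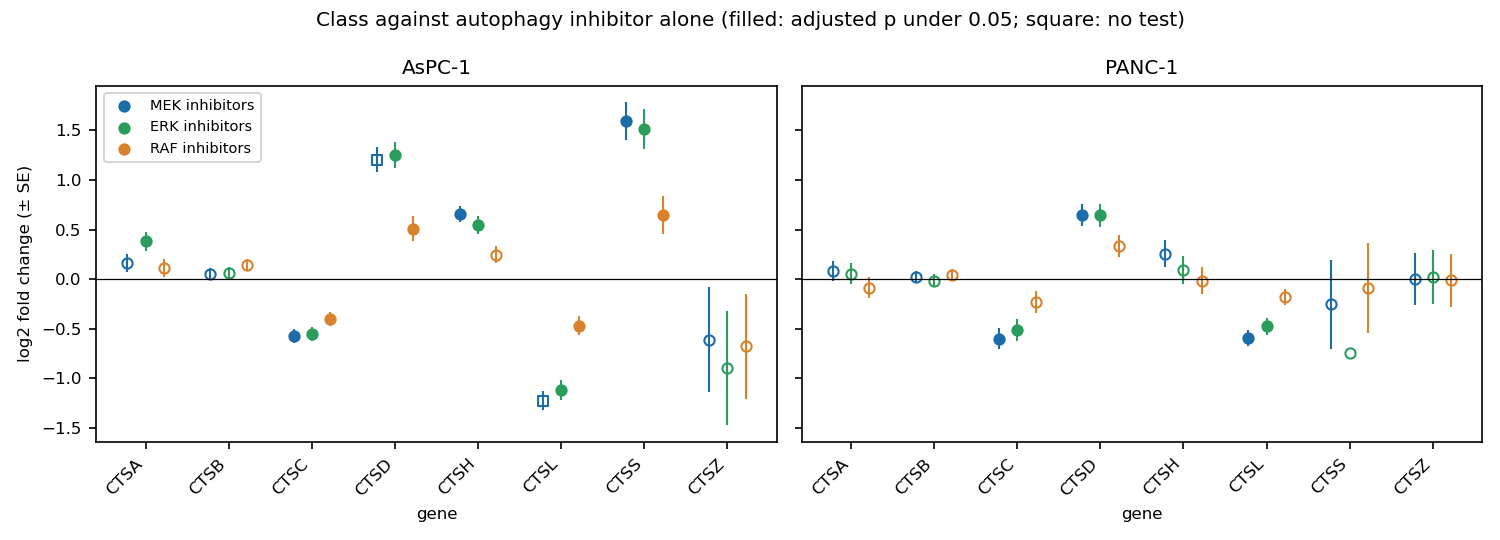
Log2 fold change (± SE) of each member for MEK, ERK and RAF inhibitors against the autophagy inhibitor alone, in each line; filled circles have an adjusted p under 0.05 by edgeR, open squares carry no test, and CTSS under ERK inhibitors in PANC-1 has no error bar because a group held no counts. In AsPC-1, CTSD and CTSS lie between 1.21 and 1.59 and CTSL near −1.2 under MEK and ERK inhibitors, while in PANC-1 CTSD lies at 0.65 and CTSL between −0.59 and −0.47.

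The response of the members to RAF inhibitors differed by drug. As a class in AsPC-1 they gave calls for CTSD (0.51 ± 0.13, edgeR adjusted p = 0.0047), CTSS (0.65 ± 0.20, adjusted p = 0.026), CTSC (−0.40 ± 0.07, adjusted p = 2.8e-05) and CTSL (−0.47 ± 0.09, adjusted p = 0.00022), so 2 higher and 2 lower, where 3.75% and 4.91% of genes were called. The member median was 0.13, against −0.04 over all genes. The calls of CTSD and CTSL share the alone libraries with the MEK inhibitor contrast, so they are not independent of the choice of genes. Without RAF709 only CTSC still passed, CTSD then standing at 0.32 (adjusted p = 0.18) and CTSL at −0.30 (adjusted p = 0.052), and within either plate alone no member passed. Over all alternatives the adjusted p ran between 1.8e-05 and 0.48 for CTSD, between 1.9e-06 and 0.59 for CTSL and between 0.0038 and 0.70 for CTSS. CTSS was also lost when 1 alone library was left out, with an adjusted p of 0.062 without replicate 1 of the Vps34 inhibitor alone and 0.066 without replicate 1 of hydroxychloroquine alone.

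The 5 RAF inhibitors were set against each other with an F test in edgeR. In AsPC-1 they differed for CTSL (adjusted p = 4.6e-08), CTSD (adjusted p = 9.3e-07), CTSC (adjusted p = 0.0025) and CTSS (adjusted p = 0.038), which is 4 of 8 members where 10.6% of genes passed. CTSL had 26.2 and 33.3 CPM with RAF709 and the Vps34 inhibitor and 30.6 and 32.8 CPM with RAF709 and hydroxychloroquine, all below the 57.4 to 99.1 CPM of the alone libraries. With PLX8394 it had 64.1 and 59.0 CPM with the Vps34 inhibitor and 122 and 96.6 CPM with hydroxychloroquine, none below the lowest alone library. The RAF709 and PLX8394 libraries thus do not overlap for CTSL.

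CTSD was highest with RAF709 among the RAF inhibitors in AsPC-1, by median level. With RAF709 it had 22.3 and 25.9 CPM with the Vps34 inhibitor and 55.8 and 40.5 CPM with hydroxychloroquine, against 13.6, 7.58, 9.55 and 10.8 CPM across the sorafenib libraries, which do not overlap. The 4 PLX8394 libraries had 8.48 to 26.1 CPM, which overlaps RAF709, and the 4 GDC-0879 libraries had 18.2 to 41.4 CPM, which overlaps RAF709 and PLX8394. RAF709 gave 1.25 ± 0.19 for CTSD (edgeR, adjusted p = 3.6e-07), −1.14 ± 0.15 for CTSL (adjusted p = 1.0e-07) and 1.31 ± 0.29 for CTSS (adjusted p = 0.00048). GDC-0879 gave 0.85 ± 0.19 for CTSD, −0.94 ± 0.15 for CTSL and 0.99 ± 0.29 for CTSS. The CTSS value for GDC-0879 rests on plate A: it had 20.8 and 15.4 CPM there and 7.55 and 4.75 CPM on plate B, and its log2 fold change was −0.00654 without the plate A libraries of every drug combination.

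Calls were also counted by drug in AsPC-1. CTSC, CTSD, CTSH, CTSL and CTSS were all called with RAF709 (12.7% of genes called in either direction) and GDC-0879 (10.9%), CTSC and CTSD with dabrafenib (3.05%), and none with sorafenib (0.102%; 2 at an unadjusted p under 0.05) or PLX8394 (0.76%; 0 at an unadjusted p under 0.05). CTSC, CTSH and CTSS were called with trametinib (15.4%), cobimetinib (16%), binimetinib (16.1%), selumetinib (7.44%) and refametinib (17.6%), for which CTSD and CTSL carry no test. All 5 genes were called with AZD0364 (18.5%). CTSA was called in addition with SCH772984 (17.5%) and ulixertinib (21.3%), and CTSH was not called with ravoxertinib (14.7%). In all, 48 of 102 tests of a member with a drug passed, each against the same 12 alone libraries, leaving out CTSD and CTSL with the 5 MEK inhibitors. Without replicate 1 of every combination the count was 31.

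Sizes among the MEK and ERK inhibitors overlapped in AsPC-1. CTSL was lowest with cobimetinib, at −1.55, and highest with ravoxertinib, at −0.96, and CTSS lay between 0.98 with selumetinib and 1.99 with binimetinib. The F test among the 5 MEK inhibitors passed for none of the 6 members other than CTSD and CTSL, where 0.627% of genes passed. CTSS was at an unadjusted p under 0.05. CTSD and CTSL carry no test here, since their MEK inhibitor values entered the choice of genes. The F test among the 4 ERK inhibitors passed for none of the 8 members, where 1% of genes passed, with CTSC and CTSH at an unadjusted p under 0.05.

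**Figure D4:**
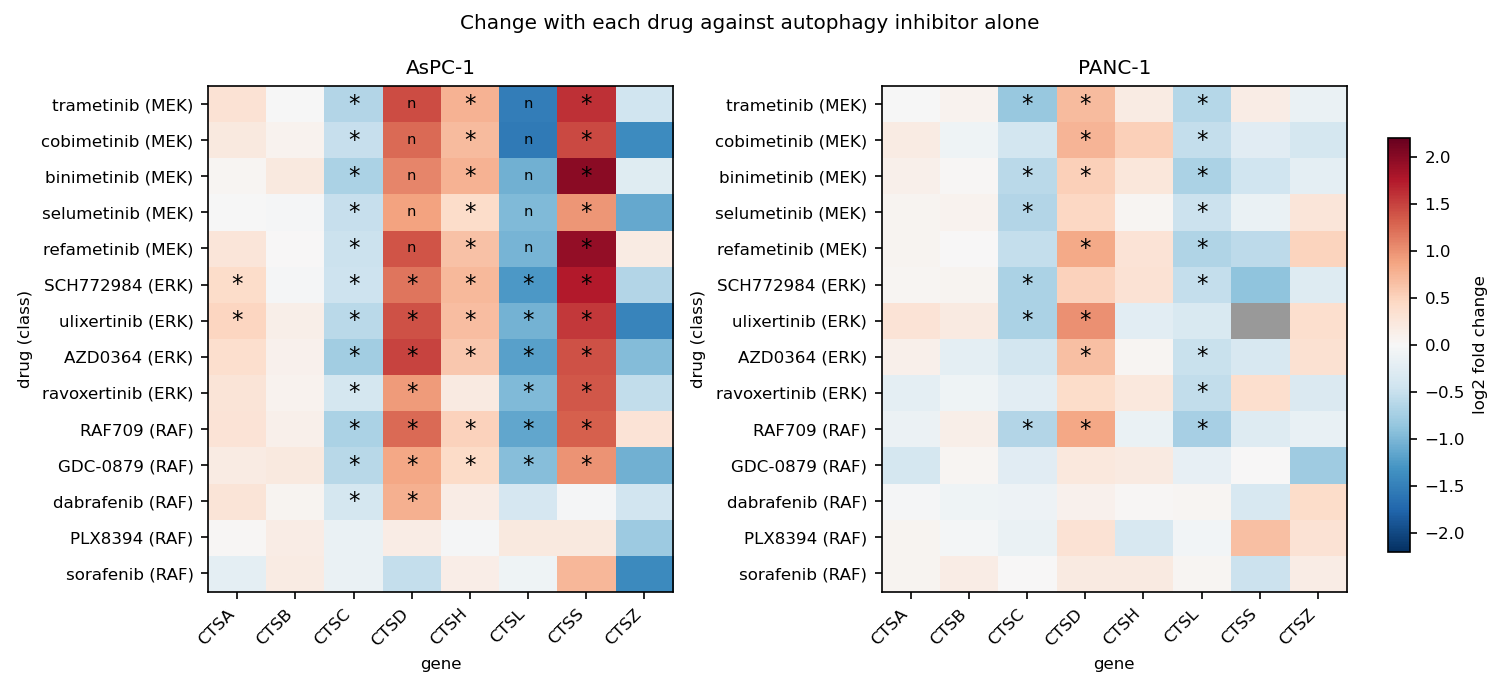
Log2 fold change of each member for each of the 14 kinase inhibitors against the autophagy inhibitor alone, in each line (colour, blue lower and red higher). Asterisks mark an adjusted p under 0.05 by edgeR and the grey cell has no SE because its group held no counts. The letter n marks the 10 cells without a test. In AsPC-1, 48 of the other 102 cells carry an asterisk and in PANC-1 22 of 112. Without replicate 1 or replicate 2 of the combinations, PANC-1 had 8 such calls.

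In PANC-1, calls among the RAF inhibitors came with RAF709 alone. As a class RAF inhibitors gave no call in PANC-1 (0 of 8 by edgeR, with 3 at an unadjusted p under 0.05 and 0.103% of genes called higher and 0.436% lower). CTSD stood at 0.34 ± 0.11 (adjusted p = 0.16), and the member median was −0.05 against −0.03 over all genes. The F test among them passed for CTSL alone (adjusted p = 0.0054; 5.23% of genes), and for no member without replicate 1 or replicate 2 of the combinations. CTSL had 37.9 and 42.6 CPM with RAF709 and the Vps34 inhibitor, where all 6 libraries of the Vps34 inhibitor alone had 66.1 CPM or more. Over both partners CTSL had 29.3 to 42.6 CPM with RAF709, against 23.9 to 73.8 CPM with GDC-0879, which overlap. With dabrafenib, PLX8394 and sorafenib it was 43.5 CPM or more in every library. CTSD had 48.7 to 71.6 CPM with RAF709, against 17.4 to 58.4 CPM with GDC-0879, which also overlap.

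By drug, RAF709 gave calls for CTSD (0.84 ± 0.17, edgeR adjusted p = 0.0004), CTSL (−0.74 ± 0.13, adjusted p = 0.00019) and CTSC (−0.65 ± 0.17, adjusted p = 0.012), with 8.47% of genes called. No member was called with sorafenib (0.0871% of genes), dabrafenib (0.0871%), PLX8394 (0.143%) or GDC-0879 (0.42%). Among MEK inhibitors, CTSC, CTSD and CTSL were called with trametinib (13.6%) and binimetinib (7.27%), CTSD and CTSL with cobimetinib (8.64%) and refametinib (6.49%), and CTSC and CTSL with selumetinib (3.71%). Among ERK inhibitors, CTSC and CTSL were called with SCH772984 (6.88%), CTSC and CTSD with ulixertinib (14.6%), CTSD and CTSL with AZD0364 (5.24%), and CTSL with ravoxertinib (4.36%). The F tests among MEK inhibitors (1.13% of genes) and among ERK inhibitors (6.55%) passed for none of the 8 members in PANC-1, with 0 members at an unadjusted p under 0.05 among MEK inhibitors and 2, CTSB and CTSD, among ERK inhibitors.

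The genes that ERK signalling switches on give a readout of the cascade beside these values. Over 9 ERK targets in AsPC-1 the median log2 fold change was −1.14 with RAF709 and −0.85 with GDC-0879, −0.21 with dabrafenib, and 0.10 and 0.22 with PLX8394 and sorafenib. It lay between −1.69 and −0.93 with the MEK inhibitors and between −2.39 and −1.46 with the ERK inhibitors. In PANC-1, over 8 targets, it was −1.97 with RAF709 and between −0.14 and −0.08 with the other 4 RAF inhibitors. The 2 readouts come from the same libraries and the same alone controls, so no correlation is given.

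In PANC-1, CTSL differed between the autophagy inhibitors given on their own. The libraries with the Vps34 inhibitor had 72.8, 75.0, 66.9, 66.1, 79.4 and 72.8 CPM, against 52.3, 46.5, 44.7, 51.5, 42.5 and 55.6 CPM with hydroxychloroquine. The groups did not overlap, and the log2 fold change of the Vps34 inhibitor against hydroxychloroquine was 0.55 ± 0.13 (edgeR, adjusted p = 0.011). CTSL was the only one of the 8 members called, where 1.31% of genes were called higher and 1.18% lower, and the member median was 0.22 against 0.00 over all genes. Within plate A and plate B alone the value was 0.55 and 0.56, and it passed in neither.

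CTSA in PANC-1 did not pass (0.48 ± 0.16, edgeR adjusted p = 0.093), nor did CTSZ (−0.88 ± 0.42). In AsPC-1 none of the 8 passed, with 1 at an unadjusted p under 0.05 (CTSH, −0.29 ± 0.13) and 3.21% of genes called higher and 2.72% lower; the member median was −0.05, against 0.01 over all genes. CTSL in AsPC-1 had 76.7, 68.3, 85.9, 57.8, 73.8 and 58.1 CPM with the Vps34 inhibitor, against 79.1, 76.8, 99.1, 61.3, 57.4 and 71.1 CPM with hydroxychloroquine, which overlap. The difference between the lines in this effect on CTSL, AsPC-1 minus PANC-1, was −0.56 ± 0.20 (edgeR, adjusted p = 0.12; DESeq2, adjusted p = 0.049) and did not pass in edgeR, where 2.51% of genes did; that of RAF inhibitors passed for no member either, where 1.68% of genes did.

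Whether the autophagy partner altered the response to a kinase inhibitor class was tested as an interaction. None of the members tested passed in AsPC-1 for MEK (0.094% of genes), ERK (0.313%) or RAF inhibitors (0%). CTSD and CTSL are left out there for MEK inhibitors, whose values entered the choice of genes. None of the 8 passed in PANC-1, where 0% of genes passed in each class. At an unadjusted p under 0.05 there were 3 members for MEK, 1 for ERK and 1 for RAF inhibitors in PANC-1. The lack of a call does not show that the partners acted alike. The member closest to a call was CTSH in AsPC-1. With MEK inhibitors it had 89.6, 109 and 123 CPM in the 10 Vps34 inhibitor libraries, against 44.8, 56.2 and 70.4 CPM in the 6 with the Vps34 inhibitor alone, and these did not overlap. With hydroxychloroquine it had 74.2, 91.6 and 116 CPM in 10 libraries with MEK inhibitors, against 65.0, 72.1 and 82.4 CPM in the 6 without, and these overlapped.

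The log2 fold change of CTSH under MEK inhibitors was thus 0.98 ± 0.12 with the Vps34 inhibitor and 0.34 ± 0.12 with hydroxychloroquine, a difference of 0.64 ± 0.17 (edgeR, adjusted p = 0.16; DESeq2, adjusted p = 0.042, the lowest over its alternatives). For ERK inhibitors the difference was 0.55 ± 0.18 (edgeR, adjusted p = 0.19), and 0.73 without ravoxertinib (adjusted p = 0.045). In PANC-1 CTSL under MEK inhibitors had 40.9 ± 7.7 CPM with the Vps34 inhibitor and 39.2 ± 6.7 CPM with hydroxychloroquine (SD, n = 10 each), so the 2 partners ended near the same level although they differed when given alone. Its log2 fold change was −0.84 ± 0.12 with the Vps34 inhibitor and −0.34 ± 0.12 with hydroxychloroquine, and the difference of −0.50 ± 0.17 had an adjusted p of 0.64 by edgeR.

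Members varied with each other over the 30 treatment groups of a line. Pearson's r of group mean log2 CPM was −0.78 between CTSD and CTSL for AsPC-1, with −0.37 for PANC-1. The 30 groups of AsPC-1 include the MEK inhibitor groups, where the opposite moves of this pair were known when the genes were picked. The −0.78 thus in part restates that choice. Between CTSC and CTSL it was 0.68 for AsPC-1, with 0.80 for PANC-1. Between CTSH and CTSS it was 0.73 in AsPC-1 and −0.18 in PANC-1, where CTSS is near 0. These are descriptions over groups that share plates and drug classes, with no test.

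The genes closest to a member were named by the highest Pearson's r over the same 30 groups, among the genes whose log2 CPM averaged 5 or more (3302 for AsPC-1, 3837 for PANC-1). In AsPC-1 they were ALDH3A1 (r = 0.915), TMEM205 and MOV10 for CTSD, DCBLD2 (0.905), VIM and KIAA0040 for CTSL, TSPAN8 (0.885), GCNT3 and KRT18 for CTSH, ANXA11 (0.879), ANXA4 and BIRC3 for CTSS, and MCFD2 (0.821), ASPH and GSTO1 for CTSC. In PANC-1 they were SIRT2 (0.905), NINJ1 and SLC7A5 for CTSD, BPGM (0.918), ITGA3 and CD59 for CTSL, and BPGM (0.842), IRAK1 and CD59 for CTSC. VIM and KRT18 encode a mesenchymal and an epithelial intermediate filament.

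Other lysosomal genes were counted from lists. Of 17 other acid hydrolases, 7 were called higher and 0 lower under MEK inhibitors in AsPC-1 (12.9% and 16.1% of all genes), led by FUCA1, a fucosidase (1.42 ± 0.15, edgeR adjusted p = 1.2e-11), and ASAH1, acid ceramidase (0.58 ± 0.08). FUCA1 had 14.01, 23.9 and 33.5 CPM under MEK inhibitors, against 3.87, 9.11 and 14.7 CPM alone. ERK inhibitors gave 6 higher and 0 lower (13.7% and 17.4% of all genes) and RAF inhibitors 3 and 0 (3.75% and 4.91%). The Vps34 inhibitor against hydroxychloroquine gave 2 and 0, where 3.21% and 2.72% of all genes were called (GLA, alpha-galactosidase, 0.83 ± 0.25, and ASAH1, 0.42 ± 0.13). The median of the 17 was 0.29 under MEK inhibitors, against −0.05 over all genes.

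In PANC-1 the same list gave 3 higher and 1 lower under MEK inhibitors (LIPA, acid lipase, 0.48 ± 0.11; FUCA1, 0.52 ± 0.13, among those higher) and 2 higher and 1 lower under ERK inhibitors, where 7.9% and 10.6% of all genes were called under MEK and 5.45% and 8.68% under ERK inhibitors, with a median of 0.05 against −0.02 under MEK inhibitors. RAF inhibitors and the Vps34 inhibitor against hydroxychloroquine gave none of 17. Of 5 genes that process or partner with cathepsins, GLB1, which CTSA protects, and TPP1, a lysosomal peptidase, rose under MEK inhibitors in AsPC-1 (0.59 ± 0.13 and 0.26 ± 0.06), and LGMN, the protease that cleaves several cathepsin precursors, rose in addition under ERK inhibitors (0.71 ± 0.19). In PANC-1, NEU1, the neuraminidase that CTSA protects, rose by 0.29 ± 0.06 under MEK and 0.48 ± 0.07 under ERK inhibitors, and PSAP, the saposin precursor, by 0.34 ± 0.07 and 0.25 ± 0.08.

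Carriers and inhibitors of cathepsins were counted in the same way, and the shares of all genes called in each contrast given above are the background for each count. Of 9 genes that sort lysosomal enzymes, SORT1 (sortilin) was called under MEK inhibitors in AsPC-1 (1.24 ± 0.26), and SORT1, GNPTG and GNPTAB under ERK inhibitors, all higher, where 12.9% and 13.7% of all genes were called higher; 1 of 9 under MEK inhibitors is near that share. In PANC-1 under MEK inhibitors SORT1 rose (0.40 ± 0.11) while both mannose 6-phosphate receptors fell, with log2 fold changes of −0.43 ± 0.07 for IGF2R and −0.20 ± 0.07 for M6PR. Of the 11 listed cystatins and serpins, 2 passed the filter in each line. CST3, a secreted inhibitor, rose in AsPC-1 by 0.20 ± 0.06 under MEK and 0.18 ± 0.07 under ERK inhibitors, and CSTB, a cytosolic inhibitor, fell in PANC-1, with log2 fold changes of −0.48 ± 0.14 and −0.43 ± 0.15. Of TFEB, TFE3, MITF and their repressor ZKSCAN3, TFEB (1.64 ± 0.62, edgeR adjusted p = 0.031, at a median of 1.14 CPM against 0.306 CPM alone) and MITF (0.77 ± 0.24) rose under MEK inhibitors in AsPC-1, and none passed in PANC-1. Under ERK inhibitors in AsPC-1 only MITF was called (0.90 ± 0.26), and under RAF inhibitors none was.

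Among the 7 other cathepsin genes, 3 passed the filter in AsPC-1 and 2 in PANC-1. CTSV, the close relative of CTSL, had a median of 13.2 CPM under ERK inhibitors, against 7.84 CPM alone, in AsPC-1 and rose by 0.53 ± 0.19 (edgeR, adjusted p = 0.021), the opposite direction to CTSL. CTSE was called lower there, with a median of 0 CPM under ERK inhibitors, against 0.976 CPM alone. None of these was called under MEK or RAF inhibitors in either line, or in PANC-1.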

How the data were processed

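The starting values were counts per gene deposited by the authors, whole numbers that were not normalised, in 136 libraries. The submitters' processing notes list kallisto 0.44.0 and GRCh38; what each was used for, and how gene counts were formed, is not given in the sources used here. Of the 25435 symbols, 4605 had no counts. Groups came from the labels. Plates A and B were read from the codes PSA and PSB in the library titles, which do not themselves say plate.

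Each line was fitted with edgeR 4.0.16 (R 4.3.3; quasi-likelihood, robust, TMM factors, filterByExpr) over 68 libraries in 30 groups with plate in the model (37 residual degrees of freedom), two-sided, with Benjamini-Hochberg adjustment over all genes. A class effect averages its drug groups minus the alone groups, each autophagy inhibitor weighted equally. Line differences came from a fit of both lines (13960 genes). Fits were tested on simulated data. DESeq2 1.42.0, other scaling and filters, single plates, and fits without single libraries or drugs were alternatives. Python 3.11.15, pandas 2.3.3 and NumPy 2.4.6 made the summaries.

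Same-plate libraries of different groups deviated together only in part: over 435 pairs of groups the median correlation of their deviations was 0.0342 in AsPC-1 and 0.0544 in PANC-1. The members and lists were chosen with earlier results of these data known. The genes named beyond the members are the 3 with the smallest adjusted p among those called in a list, and the 3 closest in pattern to a member; some genes that this rule picks are not reported here.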

Additional observations from a re-analysis of the deposited data

Results flagged for a closer look

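For 5 results the class effect differed between the lines when the difference itself was tested in the fit of both lines. Under ERK inhibitors, AsPC-1 minus PANC-1, these were 0.60 for CTSD, 0.46 for CTSH, −0.64 for CTSL and 2.22 for CTSS, and under MEK inhibitors 1.82 for CTSS. Those of CTSD and CTSL under MEK inhibitors carry no test, since this contrast in AsPC-1 was known when the members were picked. Under ERK inhibitors the p-values of these 2 genes are not independent of that choice, as the alone libraries are shared. The baseline of CTSS in PANC-1 was 0 to 2.08 CPM in the 12 alone libraries. An ERK inhibitor group there held no CTSS counts, so the 2.22 is not a reliable size. Each line was on plates of its own, so line and plate set cannot be told apart for levels, while each effect is taken within its own plates. No library stood far from the others in the 32 sets examined, each holding 1 member in 1 alone group of 6 libraries. The drug combinations, with 2 libraries each, were too small to examine in this way.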

How the results depend on the processing

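Of 4737 tested values recomputed under an alternative, 4604 kept their side of the threshold, 119 kept the direction but lost the call and 13 gained one. A reversal was counted only where the value was called in the main fit or the alternative, so values called in neither may have changed direction. There was 1 such reversal (CTSS with GDC-0879 in AsPC-1, −0.00654 without replicate 1 of every drug combination), and the cause was not tested. CTSD and CTSL under MEK inhibitors against the alone libraries in AsPC-1 carry no test and enter no count here. Of their 130 recomputed values, 120 lay within 1 SE of the reported one. The 4737 do hold their MEK against ERK and class-by-inhibitor values. Without the replicate block for plate, the counts of members called were 3 (MEK), 6 (ERK) and 4 (RAF inhibitors) in AsPC-1 and 3, 3 and 0 in PANC-1, with 45 and 21 single-drug calls. The 4 members called under RAF inhibitors in AsPC-1 became 0 on plate A alone, 0 on plate B alone, 2 without replicate 2 of every combination and 1 to 5 when single libraries or drugs were left out. The CTSL call between the autophagy inhibitors in PANC-1 became 0 on either plate alone, and the 3 calls under ERK inhibitors there became 1 on plate A. Without replicate 1 or 2, single-drug calls fell to 31 to 33 in AsPC-1 and to 8 in PANC-1 (8 and 8), and the F test among RAF inhibitors kept 2 and 2 of 4 members in AsPC-1 and 0 and 0 of 1 in PANC-1. The 5 line differences became 3 with drugs as replicates, 0 on either plate alone, and 1 to 3 without replicate 1 or 2; that of CTSH under ERK inhibitors had an adjusted p of 0.081 without the filter on low counts. DESeq2 called 1 class-by-inhibitor difference in AsPC-1 (CTSH, 0.66) where edgeR called 0. Single plates and left-out replicates hold fewer libraries. Depth limits CTSS in PANC-1 and CTSZ in AsPC-1, which were at 0 in some libraries.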
